A study of Rattus norvegicus with 18 samples.

Results

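The genes described here encode the machinery of oxidative phosphorylation (OXPHOS) in the cerebral cortex of rats with subarachnoid hemorrhage (SAH). Members were the rows of the count table whose symbols begin with Nduf followed by a, b, c, s or v, with Uqcr, with Cox and a digit from 4 to 8 or with Atp5, the 4 genes Sdha to Sdhd, and all rows whose symbols begin with Mt-. The rule took 110 of 30735 rows, of which 97 are nuclear and 13 lie in the mitochondrial genome. These rows carry 106 distinct symbols, because Cox6b1, Uqcrb, Ndufa10l1 and Ndufv3 have 2 rows each, and reads of such near-identical genes may have been split between rows, so their values are uncertain.

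A single RNA library each was made from 18 adult Sprague Dawley rats, which formed a sham group, an SAH 1d group and an SAH 7d group of 6 rats. In the SAH rats a filament advanced inside the internal carotid artery pierced the vessel at the base of the brain, and the cortex was taken on day 1 or on day 7. Sham rats had the same operation and anesthesia without the piercing, so surgery is common to all 3 groups. The day on which sham cortex was taken is not given in the sources used here. Time since surgery may therefore differ between sham and SAH rats, and it cannot be told apart from SAH. The labels give the tissue as cortex of both sides whereas the study's methods give the operated side, and neither states the sex of the rats.

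Mitochondria make most of the ATP of the brain by passing electrons from NADH and succinate to oxygen through complexes I to IV, and the proton gradient built on the way drives ATP synthase, which is complex V. Complex II is encoded wholly in the nucleus, whereas each of the others joins nuclear subunits to a few core subunits made inside the mitochondrion from its own circular genome. Neurons depend strongly on this pathway to restore ion gradients after firing.

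By complex, the rule took 37 nuclear and 7 mitochondrial genes of complex I, 8 nuclear factors that assemble complex I, the 4 genes of complex II, 9 nuclear and 1 mitochondrial gene of complex III, 22 and 3 of complex IV, and 17 and 2 of complex V. Ndufa4 and its relative Ndufa4l2 were counted with complex IV, in which the Ndufa4 protein is found despite its name. Of the 110 rows, 106 passed the filter on low counts and were tested. The rows left out were Cox7b2, with at most 13 counts in a library, Cox8b, with 11 counts over all libraries, and Cox8c and Cox6c-ps1, which had 0 counts.

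Total counts ranged from 27270026 to 38271014 per library. SAH 1d-3 and SAH 7d-5 stood apart from their groups in the series as a whole, and SAH 7d-5 was the lowest library of its group for 74 of the 93 tested nuclear members and for all 13 mitochondrial genes. SAH 1d-3 was the lowest of its group for 41 nuclear members. Sham-6 was the highest sham library for 61 nuclear members and SAH 7d-1 the highest of its group for 70.

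Levels were compared between genes on the FPKM scale, which accounts for transcript length. In sham cortex the 13 mitochondrial genes lay between 756 FPKM for Mt-nd6 and 32830 ± 8578 FPKM (SD, n = 6) for Mt-co1, the catalytic subunit of complex IV. All 93 tested nuclear members lay below the lowest of them, with a median of 85.1 FPKM. Atp5f1b, the catalytic beta subunit of ATP synthase, was the highest nuclear member at 710 ± 57.6 FPKM (SD, n = 6), ahead of Cox4i1, the main form of complex IV subunit 4, at 412 ± 22.0 FPKM (SD, n = 6) and Atp5f1a, the alpha subunit, at 409 ± 45.6 FPKM (SD, n = 6). The values of Cox4i1 and Atp5f1a differed by less than their spread.

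The highest nuclear genes of the other complexes were Ndufb9 of complex I at 184 ± 4.18 FPKM (SD, n = 6), Sdha of complex II at 144 ± 6.74 FPKM (SD, n = 6) and Uqcrc2 of complex III at 206 ± 10.3 FPKM (SD, n = 6). The 8 assembly factors of complex I lay at 3.65 to 32.1 FPKM, a range that also held some of its subunits, such as Ndufa1 at 29.2 FPKM and Ndufa3 at 18.2 FPKM, named after their values were seen. The 8 isoform genes of complex IV that belong mainly to other tissues, such as Cox6a2 and Cox7a1 of heart and muscle, reached at most 3.95 FPKM.

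**Figure D1:**
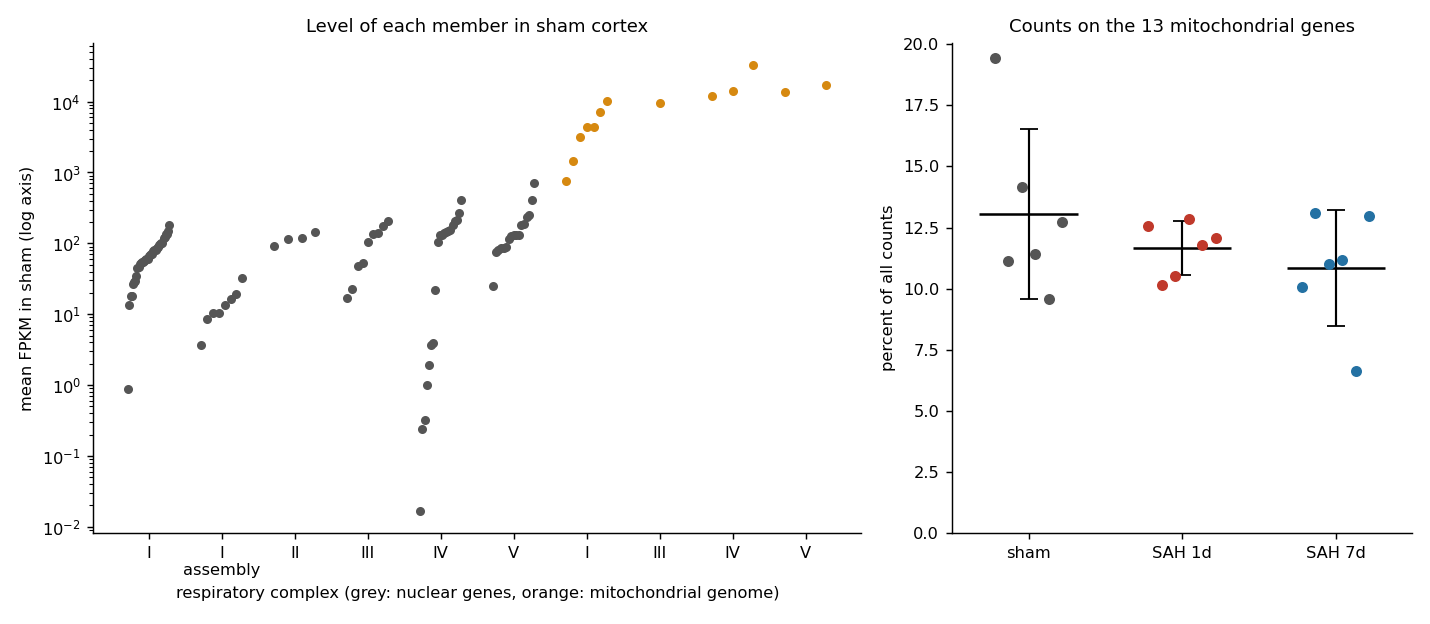
Left, mean FPKM of each member in the 6 sham libraries on a log axis, 1 point per gene, by respiratory complex, with nuclear genes in grey and mitochondrial genes in orange (genes at 0 are not drawn). Right, percent of all counts on the 13 mitochondrial genes, 1 point per rat, with mean and SD (n = 6); sham-1 is highest at 19.4% and SAH 7d-5 lowest at 6.65%.

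Promoters are shown because the sequence ahead of each start is a feature that the choice of members did not use. The RefSeq table of promoters of 300 bases on the GRCr8 build, from 250 bases before each start to 50 after it, holds 80 of the 93 distinct nuclear symbols. Motifs were sought as exact letters on both strands. They were TGCGCA, the core of the site for nuclear respiratory factor 1 (Nrf1), CGGAAG, the core bound by ETS factors such as Gabpa, and AAGATGGC, the core of the YY1 site, with CACGTG (E-box) and TATAAA (the core of the TATA box) for comparison. The CGGAAG and AAGATGGC cores can share letters, and in 0 of the 80 promoters did they do so.

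Among the 80 promoters, 40 held CGGAAG (50%), 22 held TGCGCA (27.5%) and 16 held AAGATGGC (20%). The shares over the 12586 promoters of genes that were tested were 27.2%, 12.1% and 4.75%, and over all 33469 promoters 16.6%, 7.24% and 3.17%. CACGTG was found in 7 promoters (8.75%, against 8.72% of those of tested genes and 6.42% of all) and TATAAA in 5 (6.25%, against 7.44% and 14.2%). At least 1 of the first 3 motifs was present in 58 of the 80 (72.5%), against 37.5% of the promoters of tested genes and 23.7% of all.

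The promoters of 5 genes, cut to 120 bases before and 10 bases from the start on and written in the direction of the gene, show these letters in capitals. Uqcrc2 (chr1:184599120-184599249, plus strand) has the ETS core on the other strand, with its first base 117 and 28 bases before the start. Sdha (chr1:30764433-30764562, plus strand) has the palindromic Nrf1 core beginning 47 and 2 bases before the start. Atp5f1b (chr7:1099938-1100067, plus strand) has 1 ETS core, 54 bases before the start. Atp5pf (chr11:37375092-37375221, minus strand) has a YY1 core at 111 and an ETS core at 83 bases before the start. Ndufa4 (chr4:40975550-40975679, minus strand) is shown as a called gene whose promoter holds none of the 3.
Uqcrc2: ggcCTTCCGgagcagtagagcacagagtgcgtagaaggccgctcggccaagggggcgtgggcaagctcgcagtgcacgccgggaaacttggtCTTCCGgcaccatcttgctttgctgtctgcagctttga
Sdha: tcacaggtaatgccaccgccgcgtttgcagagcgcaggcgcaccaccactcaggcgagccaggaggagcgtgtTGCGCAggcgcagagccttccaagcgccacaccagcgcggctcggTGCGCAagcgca
Atp5f1b: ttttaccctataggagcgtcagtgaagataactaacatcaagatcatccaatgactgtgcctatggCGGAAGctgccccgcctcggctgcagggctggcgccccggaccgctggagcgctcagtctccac
Atp5pf: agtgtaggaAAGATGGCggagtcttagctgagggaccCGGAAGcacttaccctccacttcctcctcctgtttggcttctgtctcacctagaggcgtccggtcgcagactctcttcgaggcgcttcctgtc
Ndufa4: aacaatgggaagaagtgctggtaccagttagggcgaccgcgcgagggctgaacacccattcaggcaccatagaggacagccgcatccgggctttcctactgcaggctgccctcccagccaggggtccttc

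These letters are a description of sequence only. Of the 18 promoters of members called lower at SAH 1d, 12 held at least 1 of the 3 motifs (66.7%), beside the same 37.5% of the promoters of tested genes. Of the 62 promoters of the other nuclear members, 46 did (74.2%). Those 62 were not limited to members that passed the filter on low counts.

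The comparison of SAH 1d with sham asks how OXPHOS transcripts stand 1 day after the bleed. Transcripts of nuclear OXPHOS subunits were modestly lower at SAH 1d, with calls in each of the 5 complexes, and no member was called higher. In edgeR's quasi-likelihood test with Benjamini-Hochberg adjustment over 18444 genes, 20 of the 106 tested members fell (adjusted p under 0.05), against 10.5% of all genes called lower. In the other direction 0 members were called, against 14.9% of all genes. At an unadjusted p under 0.05, 0 members were higher, against 21.3% of all genes. DESeq2 called 0 members higher, against 3057 of the 18444 genes. All 20 are nuclear, and their decreases ran from 13.6% to 34.8%, so that none reached a 2-fold change.

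The log2 fold change was below 0 for 97 of the 106 members, against 49.1% of all genes. Its median was -0.17 over the 93 nuclear members and 0.01 over all genes. Groups did not overlap, with all 6 SAH 1d rats below all 6 sham rats in counts per 1000000 after scaling (CPM), for 11 members (background 5.41% of all genes), and with SAH 1d above sham for 0 members (background 7.88%).

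A score was taken as the mean log2 CPM over the tested genes of a complex in each library, as a description with no test. For all nuclear members the score ran from 5.55 to 5.72 in sham (median 5.58), from 5.28 to 5.54 in SAH 1d (median 5.45) and from 5.16 to 5.70 in SAH 7d (median 5.52). On this TMM-scaled CPM, all 6 SAH 1d rats lay below the lowest sham rat. So did 5 of 6 SAH 7d rats, of which SAH 7d-6 was only just below, at 5.551 against 5.552. SAH 7d-1 lay within the sham range, and SAH 7d-5 lay below every SAH 1d rat. The scores of complexes III, IV and V likewise did not overlap between SAH 1d and sham, while 5 of 6 rats for complex II and 4 of 6 for complex I lay below the lowest sham value. The full separation did not hold on other scales, as 2 of 6 SAH 1d rats lay below every sham rat for the nuclear members' percent of all counts and for their summed FPKM. With library size alone the mean score difference was -0.057, against -0.17 with TMM.

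**Figure D2:**
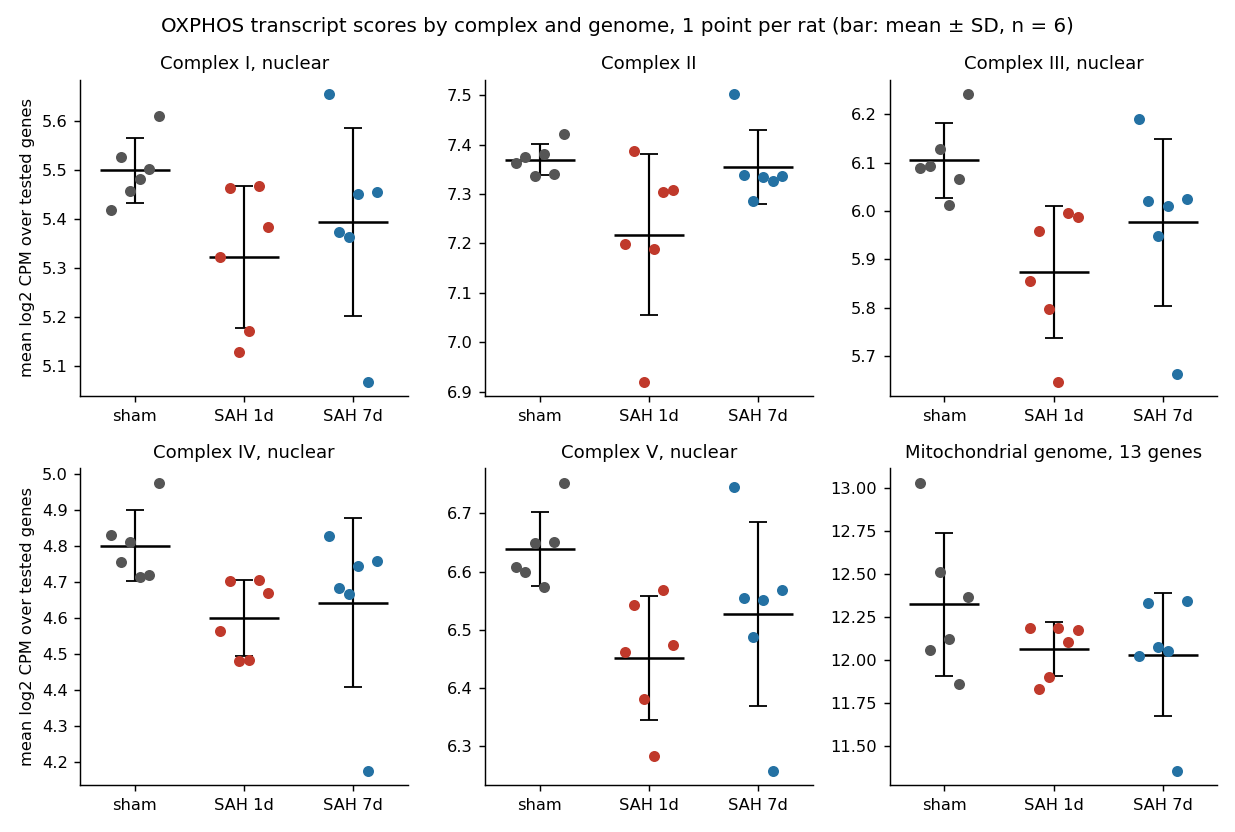
Mean log2 CPM over the tested genes of each complex and of the mitochondrial genome in every library, 1 point per rat, with mean and SD (n = 6 per group); the vertical axes do not start at 0. For complexes III, IV and V all 6 SAH 1d rats lie below all 6 sham rats, and the lowest SAH 7d point in the panels of complexes I, III, IV and V and of the mitochondrial genome is SAH 7d-5.

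Complex I takes electrons from NADH. Of its 37 nuclear genes, 7 fell and 0 rose, with a median log2 fold change of -0.18. Ndufs3, a core subunit of the arm that reaches into the matrix, had a lowest, median and highest value of 85.2, 95.4 and 115 CPM in sham, 55.5, 76.2 and 90.9 in SAH 1d and 54.9, 86.1 and 104 in SAH 7d. In total 5 of the 6 SAH 1d rats were below every sham rat, and the log2 fold change was -0.35 (SE 0.11, adjusted p = 0.0328).

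Ndufs4, an accessory subunit at the NADH-oxidizing tip of the complex, was chosen after its values were seen, for a narrow spread in sham. It ran from 126 to 137 CPM (median 132) in sham and from 89.9 to 122 CPM (median 103) in SAH 1d, with no overlap. Its log2 fold change was -0.33 (SE 0.07, adjusted p = 0.00711). The other complex I genes that fell, named here after their values were seen, were Ndufv1, which carries the flavin that accepts electrons from NADH, and the accessory subunits Ndufa5, Ndufb2, Ndufc1 and Ndufs5, at log2 fold changes of -0.28 to -0.35.

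Ndufb9, a membrane-arm subunit and the most abundant nuclear gene of complex I, showed no such difference. It lay between 130 and 145 CPM (median 141) in sham and between 118 and 167 CPM (median 136) in SAH 1d, with overlapping groups and a log2 fold change of -0.01 (SE 0.08, adjusted p = 0.94). The 8 assembly factors of complex I whose symbols begin with Ndufaf had 0 calls in either direction and a median of 0.00, with log2 fold changes from -0.15 to 0.16. SAH 1d-3 was the highest SAH 1d rat for Ndufaf1, Ndufaf2, Ndufaf4 and Ndufaf5. It was the lowest for Ndufaf3, Ndufaf6, Ndufaf7 and Ndufaf8, all named after their values were seen. For Ndufaf4 it had 71.1 CPM against 34.0 to 45.7 in the other SAH 1d rats. Its score for these factors was 4.13, within the SAH 1d range of 4.07 to 4.22.

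Complex II links the citric acid cycle to the chain. Its catalytic flavoprotein subunit Sdha lay between 338 and 358 CPM (median 353) in sham, between 222 and 316 CPM (median 294) in SAH 1d and between 251 and 389 CPM (median 329) in SAH 7d. The sham values were tightly grouped and all 6 SAH 1d values were lower, with a log2 fold change of -0.30 (SE 0.08, adjusted p = 0.0159). The iron-sulfur subunit Sdhb and the membrane anchors Sdhc and Sdhd had log2 fold changes of -0.04, -0.13 and -0.11 with adjusted p of 0.797, 0.254 and 0.324, and their groups overlapped. Whether Sdha differed more than its partner subunits was not tested.

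Complex III passes electrons from ubiquinol to cytochrome c. All 9 of its nuclear rows had log2 fold changes below 0, with a median of -0.21, and 3 fell. Uqcr11, a small subunit at the edge of the complex, showed the largest decrease of any called member. It lay between 89.6 and 108 CPM (median 96.0) in sham, between 49.9 and 76.5 CPM (median 63.2) in SAH 1d and between 43.0 and 92.2 CPM (median 83.1) in SAH 7d. Every SAH 1d rat was below every sham rat, and the level fell by 34.8%, a log2 fold change of -0.62 (SE 0.10, adjusted p = 0.00121).

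Uqcrc2, a core protein on the matrix side of complex III and its most abundant nuclear transcript, lay between 391 and 420 CPM (median 403) in sham and between 316 and 372 CPM (median 337) in SAH 1d, again with no overlap. Its log2 fold change was -0.25 (SE 0.06, adjusted p = 0.00967). The third gene that fell was Uqcrfs1, the Rieske iron-sulfur protein, at -0.28, named after its value was seen.

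Complex IV reduces oxygen to water. Of its 18 tested nuclear rows 4 fell, and the median was -0.22. Ndufa4 lay between 169 and 188 CPM (median 179) in sham, between 123 and 149 CPM (median 138) in SAH 1d and between 94.8 and 195 CPM (median 171) in SAH 7d. The sham and SAH 1d groups stood well apart, with a log2 fold change of -0.38 (SE 0.06, adjusted p = 0.00151), whereas the SAH 7d rats covered both.

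Several subunits of complex IV have a form found in most tissues and another typical of particular tissues or oxygen levels. Among the common forms, Cox7a2 lay between 81.7 and 104 CPM (median 94.7) in sham and between 50.5 and 80.3 CPM (median 76.5) in SAH 1d, without overlap and with a log2 fold change of -0.38 (SE 0.11, adjusted p = 0.0224). Both rows named Cox6b1 fell, the abundant one (ENSRNOG00000024309, median 94.6 CPM in sham) by 16.6% and the scarce one (ENSRNOG00000034161, median 6.16 CPM in sham) by 22.2%, with adjusted p of 0.022 and 0.0335. Because the rows share a symbol, and the RefSeq table lists a pseudogene of Cox6b1, they may not be independent measurements.

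Cox4i1 was not called, at 306 to 341 CPM (median 323) in sham and 227 to 366 CPM (median 294) in SAH 1d, with 3 SAH 1d rats below and 1 above every sham rat (log2 fold change -0.16, SE 0.11, adjusted p = 0.313). Cox6a1 and Cox8a had log2 fold changes of -0.11 and -0.23 with adjusted p of 0.34 and 0.124. The common forms of the subunits thus did not all pass the test, but the log2 fold changes of all 12 rows were below 0.

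None of the scarce isoforms was called by edgeR in the fit reported here. Cox4i2, the form known for its induction at low oxygen in other tissues, lay between 1.70 and 2.71 CPM in sham and between 1.36 and 2.77 CPM in SAH 1d (log2 fold change -0.29, SE 0.22, adjusted p = 0.353). Ndufa4l2, a relative of Ndufa4 known as a target of hypoxia-inducible factors, lay between 3.03 and 4.29 CPM (median 3.83) in sham and between 0.836 and 3.16 CPM (median 2.42) in SAH 1d. For it, 5 of 6 SAH 1d rats were below every sham rat, and the log2 fold change was -0.69 (SE 0.25, adjusted p = 0.0601). It was called lower by DESeq2 (adjusted p = 0.0262), by voom (adjusted p = 0.0216) and by edgeR without SAH 1d-2 (adjusted p = 0.0469) and without SAH 1d-3, the lowest library (log2 fold change -0.51, adjusted p = 0.0216), whereas with library size alone the adjusted p was 0.118.

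Cox6a2, the muscle form of subunit 6a, was higher in 5 of 6 SAH 1d rats than in any sham rat, at 1.81 to 2.86 against 1.49 to 2.39 CPM, with a log2 fold change of 0.32 (SE 0.18, adjusted p = 0.199). It was called only by limma on FPKM with a filter on low values (adjusted p of 0.0423 with a pseudocount of 1 and 0.0431 with a pseudocount of 0.1). Cox6b2, the testis form of subunit 6b, and Cox7a1 had log2 fold changes of 0.35 and -0.04 with adjusted p of 0.485 and 0.927, at medians in sham of 0.469 and 0.543 CPM.

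ATP synthase turns the proton gradient into ATP. Of its 17 nuclear genes 5 fell, and the median was -0.21. All 5 subunits of the catalytic F1 head had log2 fold changes below 0 and 2 of them fell, both close to the threshold. Atp5f1b lay between 1219 and 1427 CPM (median 1369) in sham and between 1071 and 1280 CPM (median 1162) in SAH 1d, with 3 SAH 1d rats below every sham rat and a log2 fold change of -0.21 (SE 0.07, adjusted p = 0.0496). Atp5f1a, named after its value was seen, had a log2 fold change of -0.25 (adjusted p = 0.04995).

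The genes Atp5mc1, Atp5mc2 and Atp5mc3 encode the same mature c subunit of the membrane ring that rotates with proton flow. Atp5mc1 lay between 70.1 and 91.6 CPM (median 77.8) in sham and between 45.6 and 71.3 CPM (median 61.0) in SAH 1d, and 5 of 6 SAH 1d rats were below every sham rat (log2 fold change -0.37, SE 0.11, adjusted p = 0.0223). Atp5mc3, the most abundant of the 3 by FPKM, had a log2 fold change of -0.25 (SE 0.08, adjusted p = 0.0354). For Atp5mc2 the log2 fold change was -0.12 (SE 0.07, adjusted p = 0.246), and whether it differed from the other genes was not tested. Atp5pf, coupling factor 6 of the stalk, was the remaining gene that fell, at -0.21, and was named after its value was seen.

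**Figure D3:**
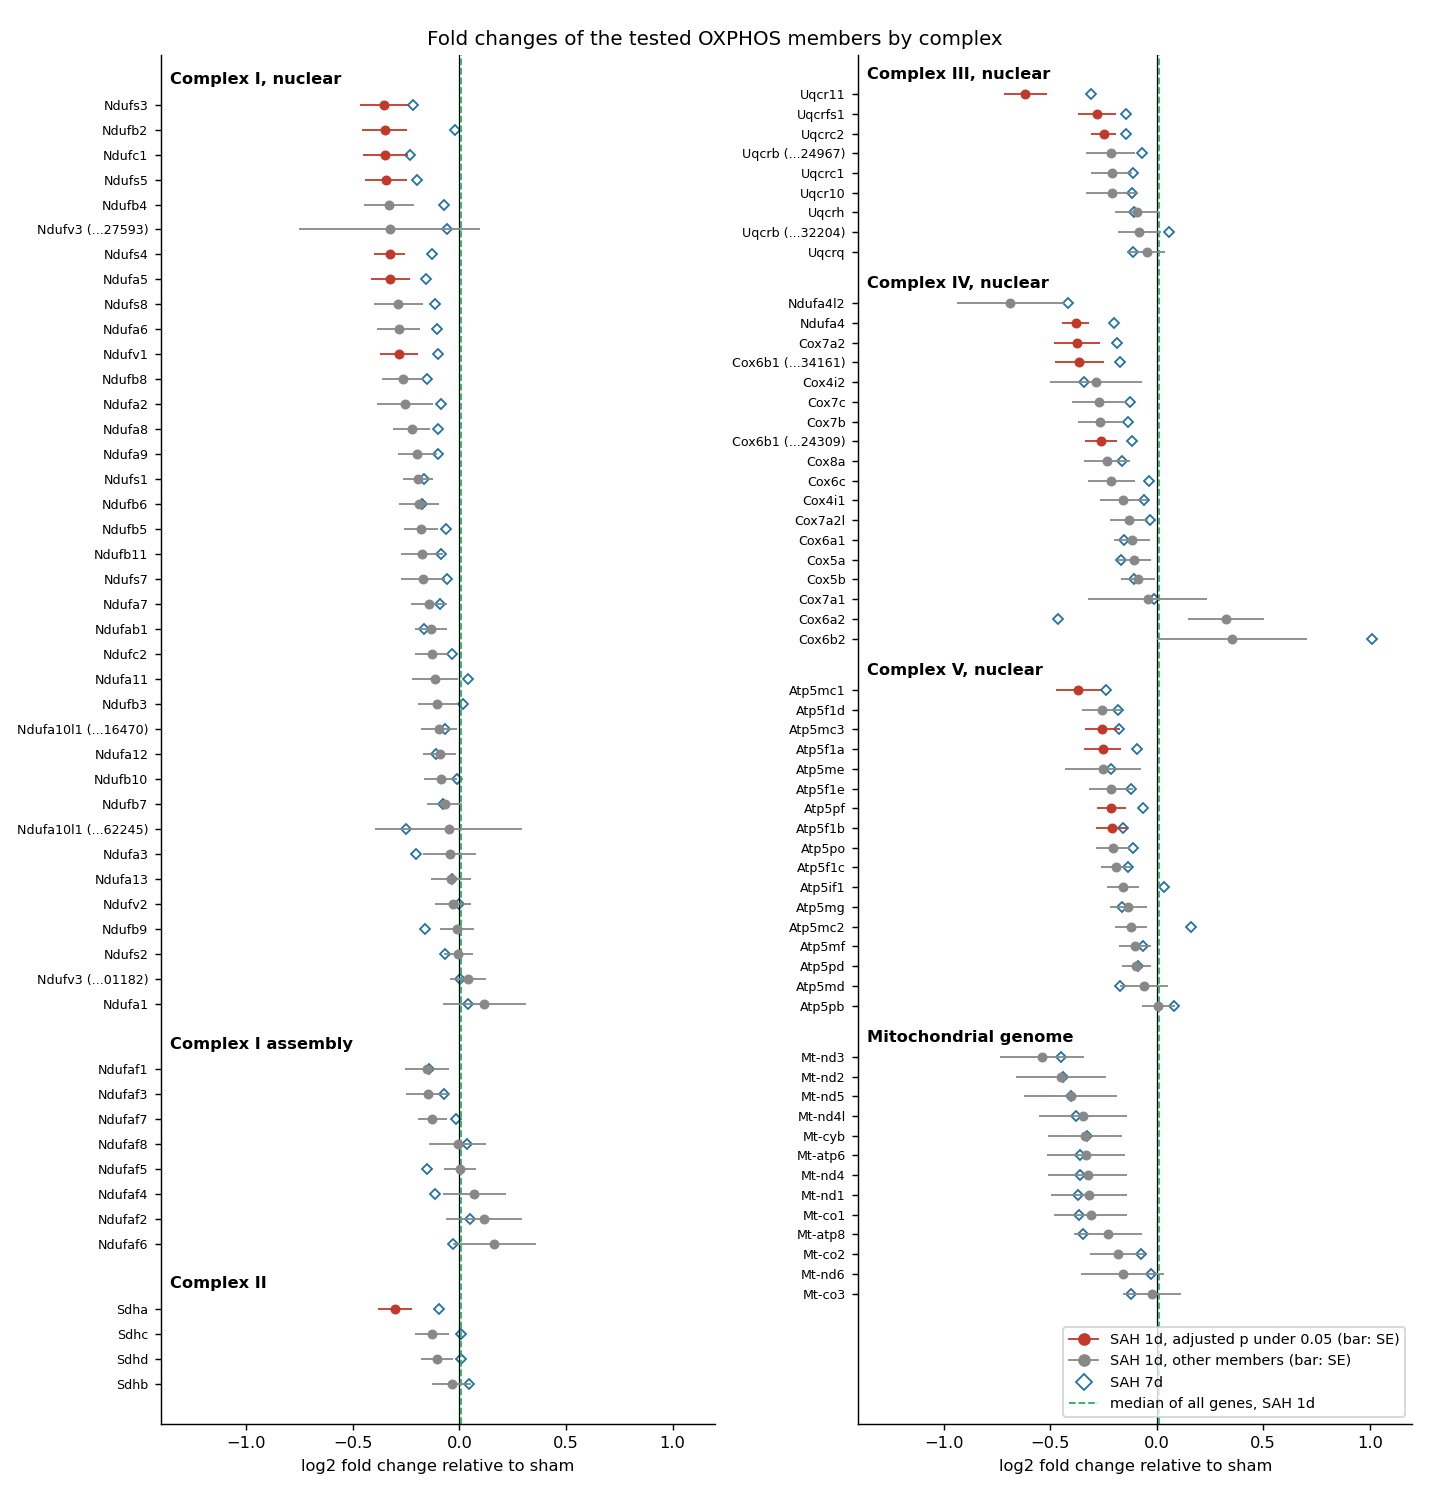
Log2 fold change relative to sham of the 106 tested members by complex and genome. Circles with SE bars give SAH 1d (red where the adjusted p was under 0.05), open diamonds SAH 7d, and the dashed line the median of all genes at SAH 1d (0.01). The 20 red circles all lie left of 0, and the Ndufaf assembly factors of complex I lie around it.

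The number of members called depended on scaling and on single sham rats. With library size alone in place of TMM scaling, the median of all genes moved to 0.12 and 2 members were called, Uqcr11 and Ndufa4, while all calls split into 4107 higher and 947 lower against 2748 and 1936 with TMM. Measured from the median of all genes, the nuclear median was -0.17 there and -0.18 in the fit reported here. A change of scaling moves all genes nearly alike, so this distance hardly depends on it and cannot test the scaling. The distance lay between -0.10 and -0.21 over all 28 settings run. Leaving out 1 library at a time gave 8 to 24 calls, with 8 without sham-6, 12 without sham-3 and 13 without sham-5, SAH 1d-1 or SAH 1d-4. Without SAH 1d-3, 21 members were called.

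Transcripts of the mitochondrial genome are cut from long precursors that cover nearly the whole circle. All 13 genes had log2 fold changes below 0 at SAH 1d, with a median of -0.32, and 0 were called, with the smallest adjusted p at 0.0601. The sham rats were widely spread, as the median SD of log2 CPM in sham was 0.45 for these genes against 0.11 for the nuclear members and 0.22 for all genes. Sham-1 was the highest sham library for all 13, and without it the median log2 fold change was -0.14, while voom gave -0.15.

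Together the 13 genes took 9.57% to 19.4% of all counts in sham (median 12.1%), 10.2% to 12.9% in SAH 1d (median 11.9%) and 6.65% to 13.1% in SAH 7d (median 11.1%). The SAH 1d values lay within the range of sham. Mt-nd3, a membrane core subunit of complex I, had the largest log2 fold change and was named after its value was seen. It lay between 357 and 775 CPM (median 528) in sham and between 307 and 437 CPM (median 381) in SAH 1d (log2 fold change -0.54, SE 0.20, adjusted p = 0.0601), and it was called by DESeq2 (adjusted p = 0.0284) and by edgeR without sham-2 (adjusted p = 0.035) and without sham-5 (adjusted p = 0.0348). Mt-co1 lay between 39212 and 85813 CPM in sham and between 35041 and 51073 CPM in SAH 1d, with a log2 fold change of -0.31 (SE 0.17, adjusted p = 0.197).

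Strand use in counting is not given in the sources used here, so reads of Mt-nd6, which is read from the other strand, could not be told from those of its antisense neighbours. Mt-atp8 and Mt-atp6, and Mt-nd4l and Mt-nd4, overlap in the genome, and their reads may have been shared.

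**Figure D4:**
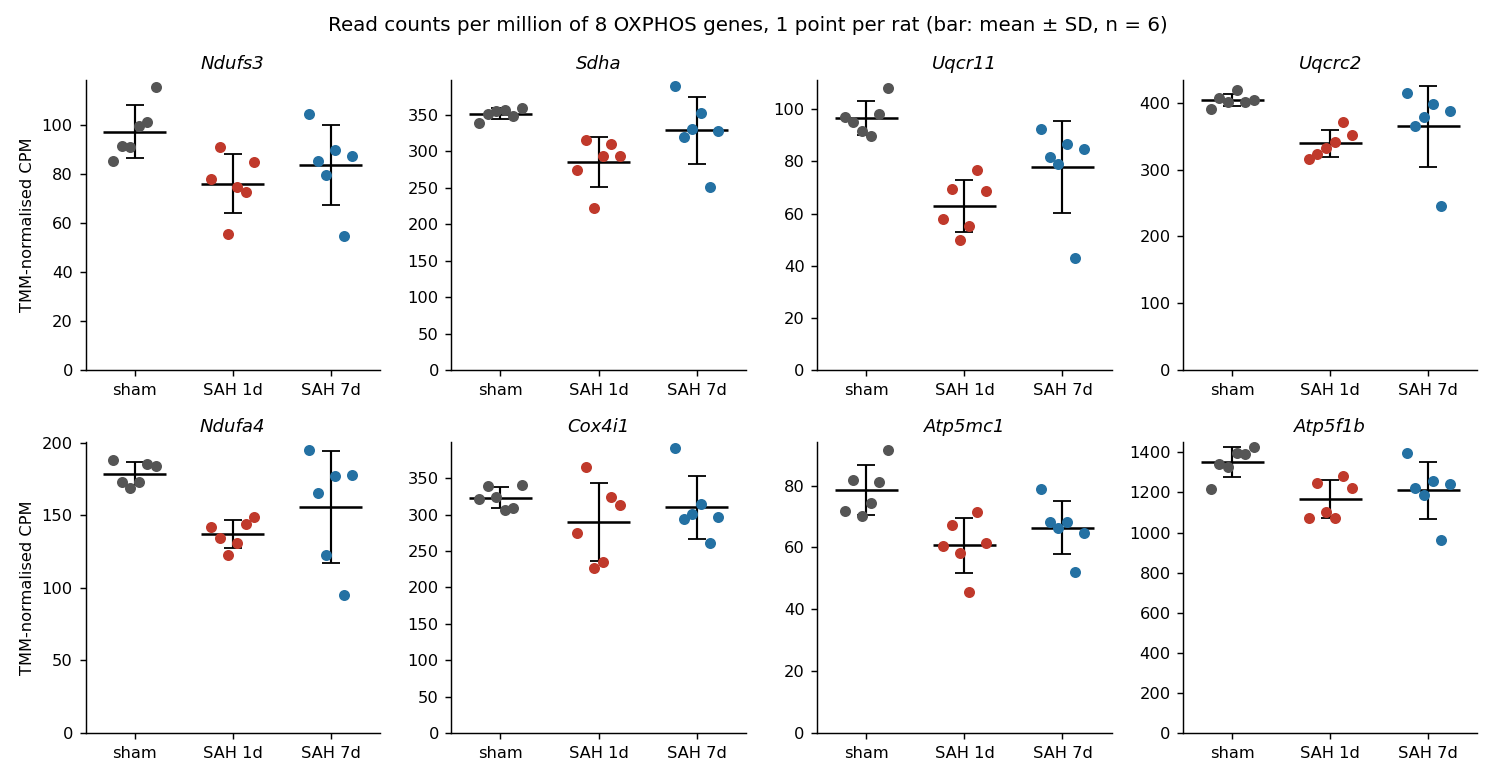
CPM of 8 nuclear OXPHOS genes in every library, 1 point per rat, with mean and SD (n = 6 per group) and axes from 0. Sdha, Uqcr11, Uqcrc2 and Ndufa4 do not overlap between sham and SAH 1d, Ndufs3, Cox4i1, Atp5mc1 and Atp5f1b do, and SAH 7d-5 is the lowest SAH 7d rat in all 8 panels.

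Between SAH 1d and SAH 7d the question is whether these levels moved back. By edgeR 0 members were called (1.08% of all genes lower and 0.282% higher), and by DESeq2 0 as well. At an unadjusted p under 0.05, 2 members were higher and 0 lower, against 6.66% and 8.05% of all genes. Log2 fold changes were below 0 for 30 of 106 members (background 45.9%), and the median over nuclear members was 0.09 against 0.03 over all genes. Single libraries moved this difference of 0.06, which was 0.02 without SAH 1d-3 or SAH 7d-1, 0.03 without SAH 1d-4 and 0.15 without SAH 7d-5. All calls here split into 52 higher and 200 lower, and with library size alone into 45 and 407.

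The 20 genes called at SAH 1d had log2 fold changes of 0.05 to 0.33 from SAH 1d to SAH 7d, with a median of 0.15. That direction is not independent of their choice, since both comparisons use the same SAH 1d rats. For Sdha, 5 of 6 SAH 7d rats were above every SAH 1d rat (log2 fold change 0.20, SE 0.11, adjusted p = 0.438), and for Uqcr11 5 of 6 were above and SAH 7d-5 was below (0.30, SE 0.17, adjusted p = 0.429). Without SAH 7d-5, 2 members passed the test, Uqcr11 at 0.42 (adjusted p = 0.0314) and Ndufs4 at 0.29 (adjusted p = 0.0453). With SAH 1d-3 left out as well, the same 2 genes passed, and voom called both and Sdha (adjusted p = 0.0451).

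Against sham, 0 members were called at SAH 7d by edgeR, DESeq2 or voom, where 0% of all genes were called lower and 0% higher by edgeR and DESeq2 called 53 and 406 genes. At an unadjusted p under 0.05, 2 members were lower and 1 higher (background 3.66% and 11.7%). Log2 fold changes were below 0 for 92 of 106 members, against 50.6% of all genes, with a median of -0.11 over the nuclear members. That median was -0.05 without SAH 7d-5 and by voom, and -0.06 with library size alone, where the median of all genes was 0.04. For the 20 genes called at SAH 1d the median was -0.16, in a range from -0.31 to -0.02, and this direction too is not independent of their choice, since the same sham rats served in both comparisons.

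Cox6b2 had the largest difference of any member at SAH 7d, at 0.366 to 0.792 CPM in sham and 0.445 to 1.57 CPM (median 1.13) in SAH 7d, with 4 of 6 SAH 7d rats above every sham rat (log2 fold change 1.01, SE 0.32, adjusted p = 0.224). By complex, the median log2 fold change against sham was -0.09 for the nuclear genes of complex I, 0.01 for complex II, -0.11 for complex III, -0.14 for complex IV and -0.12 for complex V, and it was -0.36 for the mitochondrial genome (-0.16 without sham-1 and -0.13 by voom). The scores of SAH 7d-5 for complexes I, III, IV and V were below every other SAH 7d rat, and this library also had the lowest neuron score of its group (7.50 against 9.40 at the highest) and the highest monocyte and macrophage score (7.10 against 2.51 at the lowest). The part of these in its OXPHOS values was not tested.

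Genes around the pathway were taken from lists chosen with earlier results of these data known, and they are given as counts in SAH 1d versus sham. Of 14 tested genes of the citric acid cycle, which supplies NADH and succinate, 6 fell and 0 rose (median log2 fold change -0.23), among them Pdhb, a subunit of pyruvate dehydrogenase, at -0.40 and Sucla2, a subunit of succinyl-CoA synthetase, at -0.34. Of 13 electron carriers and alternative entry points 0 were called (median -0.11). Of 28 assembly factors of complexes II to V 4 fell and 1 rose (median -0.07), with Cox14 at -0.52 and Cox18 at 0.41. Of 9 assembly factors of complex I under other symbols 2 fell and 0 rose, with a median of -0.20, unlike the Ndufaf genes. For the mean log2 CPM of these 9 genes, all 6 SAH 1d rats lay below every sham rat.

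Other groups of mitochondrial genes had calls in both directions or to the higher side alone. Of 75 mitochondrial ribosomal protein genes 2 fell and 4 rose (median -0.01). Of 12 genes of mitochondrial transcription and replication 1 rose, Tfam, which packages and transcribes the mitochondrial genome, at 0.40 (SE 0.08, adjusted p = 0.0034), and 0 fell. Of 8 regulators of mitochondrial biogenesis 3 rose and 0 fell. They were Pprc1 (0.45, SE 0.13, adjusted p = 0.0251), Gabpa (0.43, SE 0.11, adjusted p = 0.0142) and Nrf1 (0.26, SE 0.09, adjusted p = 0.0481). Gabpa and Nrf1 bind motifs shown above. Of 20 genes of mitochondrial membranes and import 3 fell and 3 rose, led by the chaperonins Hspe1 at 1.58 and Hspd1 at 1.35. Of 4 uncoupling proteins 2 fell and 1 rose. Without SAH 1d-3, 8 citric acid cycle genes and 5 genes of membranes and import were called lower, and the transcription and replication genes had 1 lower and 2 higher. Of the biogenesis regulators, 2 were called higher without SAH 1d-3 and 4 with library size alone. With library size alone, which raises all log2 fold changes, 1 citric acid cycle gene was called lower, the assembly factors of complexes II to V had 0 lower and 2 higher, and the mitochondrial ribosomal protein genes 1 lower and 13 higher.

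Of 103 tested rows of cytosolic ribosomal protein genes, 62 rose and 0 fell (median 0.43). Whether these rows include near-identical genes that share reads was not checked. The median of the nuclear OXPHOS genes was -0.17, and that of all genes was 0.01. The cause of the difference between the 2 sets was not tested. Of 9 genes of the hypoxia response 4 rose, led by Adm and Pfkfb3, and 1 fell.

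Markers of neurons were lower at SAH 1d, as were the nuclear OXPHOS subunits. All 8 neuron markers fell at SAH 1d (median -0.61; 4 with library size alone), none was at 0, and the neuron score ran from 8.89 to 9.48 in sham, from 8.51 to 8.88 in SAH 1d and from 7.50 to 9.40 in SAH 7d. The SAH 1d rats were below every sham rat for this score as they were for the nuclear OXPHOS score. Within SAH 1d the 2 scores did not rank the rats alike, though SAH 1d-5 was highest for both. SAH 1d-4 had the lowest nuclear OXPHOS score (5.28) with a neuron score of 8.82. SAH 1d-2 had an OXPHOS score of 5.53 with a neuron score of 8.61, and SAH 1d-3 had 5.29 with the lowest neuron score, 8.51. In bulk tissue, fewer neurons and less RNA per neuron cannot be told apart, and the part of either in the lower OXPHOS levels was not tested.

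At SAH 1d the other marker lists gave 1 of 6 lower and 1 higher for astrocytes, 0 of 6 called for oligodendrocytes, 1 of 6 lower and 1 higher for microglia, 3 of 5 higher for monocytes and macrophages, 1 of 1 higher for neutrophils, 1 of 5 higher for endothelial cells, 0 of 6 called for mural cells, 0 of 3 called for red cells and 3 of 5 higher for the choroid plexus. The choroid plexus score ranged widely, from -1.20 to 2.33 in sham and from 0.21 to 5.72 in SAH 1d. Without SAH 1d-3, 4 microglia markers were higher (4 also with library size alone), 0 of 1 neutrophil and 5 of 5 choroid plexus markers, and with library size alone 4 choroid plexus and 2 mural cell markers were higher. The part of these cells in the OXPHOS values was not tested.

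**Figure D5:**
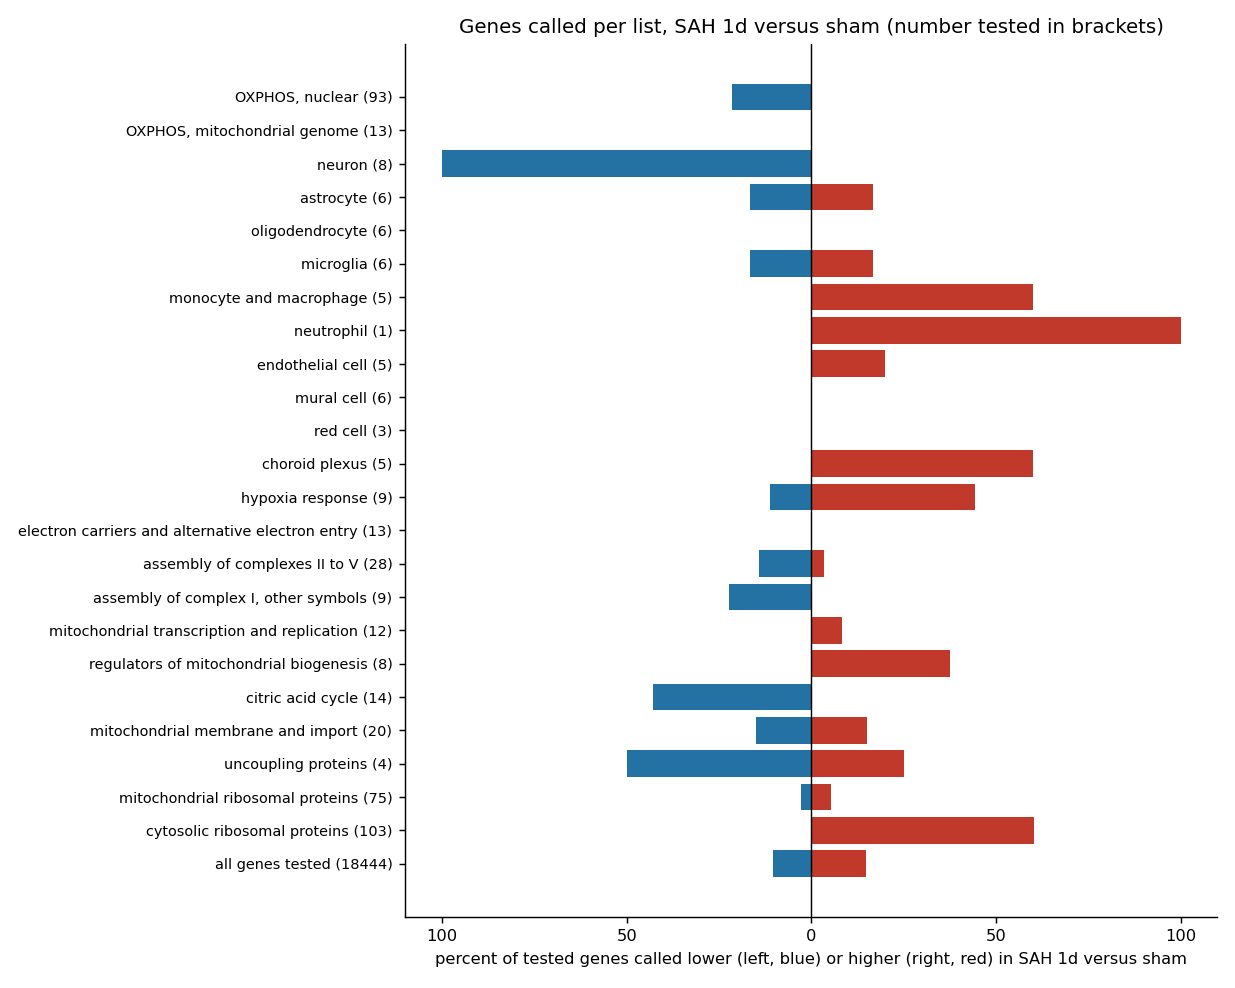
Percent of the tested genes of each list called lower (left, blue) or higher (right, red) in SAH 1d versus sham by edgeR at an adjusted p under 0.05, with the number tested in brackets. Nuclear OXPHOS genes, neuron markers and citric acid cycle genes have calls to the left with none to the right, whereas cytosolic ribosomal protein genes have calls to the right with none to the left.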

How the data were processed

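RNA of rat cortex was sequenced in 18 libraries of 1 rat each, with 6 per group, assigned to groups by the descriptions in the labels. Per the labels and the study's methods, the authors trimmed reads with fastp, aligned them with HISAT2 and counted them per gene. The study names the Rnor_6.0 build while the labels name a mouse build, and the counting program is not given in the sources used here. The deposited counts are whole numbers without normalization. FPKM (fragments per kilobase per 1000000 mapped) was deposited too, computed by the authors, and served here only to compare levels between genes and in alternative fits. The authors' DESeq2 1.16.1 results were not used.

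Counts were tested with edgeR 4.0.16 in R 4.3.3 (filterByExpr over 18 libraries, TMM, quasi-likelihood F test, two-sided, 12 libraries per comparison, Benjamini-Hochberg over 18444 genes). A gene was called at an adjusted p under 0.05. SE is the log2 fold change divided by the root of F. CPM values are TMM-scaled, and scores used a prior count of 2. The members, lists and tests were chosen with earlier results of these data known. Genes were named by a rule: the called member with the largest change in each complex, isoform families of complexes IV and V, all of complex II, and the most abundant nuclear gene of each complex. For lists, the rule took the 2 called genes of largest change. Others are said to have been chosen after their values were seen. Tfam, Gabpa and Nrf1 regulate members and were also chosen so.

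Alternatives were DESeq2 1.42.0, limma 3.58.1 (voom, and log2(FPKM + 1) or + 0.1 kept where the mean FPKM was 0.5 or more, or unfiltered), other scalings and filters, a robust fit, all 18 libraries in 1 fit, a replicate block, and each library left out. The edgeR test was tested on simulated data, with changes larger than any decrease of a member called here. That check does not show how well smaller changes are found. Tables and figures were made with Python 3.11.15, pandas 2.3.3 and matplotlib 3.10.9. Promoter sequences are from RefSeq (GRCr8).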

Additional observations from a re-analysis of the deposited data

Results flagged for a closer look

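Of 99 groups of 6 libraries checked, 9 held a library whose gap to the nearest other exceeded Dixon's critical share of the group's range at the 95% level. That level corresponds to about 1 in 20 for independent groups of normal values. The groups checked share libraries and genes, so 9 of 99 cannot be read as an excess over chance. SAH 7d-5 had the most of these flags. Its Uqcr11 level was 43.0 CPM against 78.9 to 92.2 in the other SAH 7d rats, and its Uqcrc2 level was 245.8 CPM against 365 to 414. Its score for the assembly factors of complex I was 3.79 against 4.10 to 4.24, its complex IV score 4.18 against 4.67 to 4.83, and its mitochondrial genome score 11.4 against 12.0 to 12.3. SAH 1d-3 had 0.836 CPM of Ndufa4l2 against 2.36 to 3.16 in the other SAH 1d rats, and 89.3 CPM of Sdhb against 119 to 132. Sham-6 had the highest nuclear OXPHOS score of its group, 5.72 against 5.55 to 5.59. SAH 7d-1 had a complex II score of 7.50 against 7.29 to 7.34.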

How the results depend on the processing

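For SAH 1d versus sham, 20 members were called. The count was 6 with all 18 libraries in 1 fit, 2 with library size alone, 5 with limma on log2(FPKM + 1) and on log2(FPKM + 0.1) (4 lower and 1 higher in each), 4 with log2(FPKM + 1) and no filter, 32 with voom, 30 with DESeq2, and 8 to 24 with 1 library left out. The nuclear score difference was -0.17, and -0.057 with library size alone, -0.059 on log2(FPKM + 1) and -0.060 on log2(FPKM + 0.1). The cause of these shifts was not tested, apart from the scaling, which moved the median of all genes as given above. For SAH 7d versus SAH 1d, where 0 members were called, voom called 3, the fit without SAH 7d-5 called 2 and the fit that also lacked SAH 1d-3 called 2, and leaving out 1 library gave 0 to 2. All genes called there split into 367 higher and 645 lower by DESeq2. No member was called in SAH 7d versus sham under any of the 28 settings, and no result changed its direction while called. Of the 20 genes, Uqcr11 was called in all 27 alternatives, Ndufa4 in 26, Ndufs4 in 25 and Sdha in 23, while Atp5f1a was called in 8 and Atp5f1b in 7. In each comparison with sham, leaving out SAH 1d-3 and SAH 7d-5 is the same fit as leaving out 1 of them. That fit is therefore counted again among the 27 alternatives and the 28 settings.

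The replicate numbers of the SAH rats follow the sorted order of their sample titles, so they give no ground for pairing rats. The correlation of deviations between rats with the same number lay between -0.05 and 0.07 for SAH 1d and sham, and 0 of 6 pairs exceeded 0.1. No SAH 1d library correlated best with its own number in that comparison. For SAH 7d and SAH 1d the correlation lay between -0.25 and 0.20, with 1 of 6 pairs over 0.1. For SAH 7d and sham it lay between -0.22 and 0.08, with 0 of 6 pairs over 0.1. With the replicate number as a block, 16, 0 and 0 members were called in the 3 comparisons, and the 16 included Ndufa4l2 (adjusted p = 0.0455) and Mt-nd3 (adjusted p = 0.0482). With 6 rats per group and decreases of 13.6% to 34.8%, members near the threshold passed or failed with single sham rats. How much of the spread between libraries is counting error was not measured.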
